A study of Oreochromis niloticus with 6 samples.

Results

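The glucose transporters of the slc2a family were examined in the liver of GIFT, a farmed strain of Nile tilapia (Oreochromis niloticus), after 96 h of hypoxia. Members were the loci of the deposited expression table whose gene name begins with slc2a and a digit, with upper and lower case treated alike. The rule found 15 loci among the 31872 loci of the table, and it used no expression value. A further locus, named glut1, carries the older symbol of slc2a1b in RefSeq. It falls outside the name rule and is not among the 15, and where it is set beside the members or added to them this is said.

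The slc2a genes encode the GLUT proteins, carriers that let sugars cross membranes down their concentration gradient. In the vertebrate liver the carrier GLUT2, encoded by slc2a2, moves glucose in either direction across the hepatocyte membrane, so that the same protein serves uptake after a meal and release during fasting. The family also holds carriers of fructose, urate, dehydroascorbate and inositol, and in mammals some of its members, slc2a1 and slc2a3 among them, are classic targets of the hypoxia-inducible factors (HIF).

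Liver RNA was sequenced in 6 libraries of GIFT sampled at 96 h. The 3 HG libraries came from tanks brought to a dissolved oxygen (DO) of 0.7 to 0.8 mg/L by the labels (the study's methods give another value), and the 3 CG libraries from control tanks at 5 mg/L. The labels do not say whether a library is a single fish or a pool, so the p-values measure only the spread between these libraries. The study calls the libraries biological replicates and does not say which tanks or fish each holds. Levels are given in FPKM, fragment counts scaled for transcript length and library size, which allows genes of different length to be compared.

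The FPKM of a library summed to 459912 to 493870, and 2852 to 3763 loci lay above 10 FPKM. The relative depth read from the lowest values differed by at most 1.41-fold between libraries. The study gives read totals for each library, which were not used here. The correlation of log2(FPKM + 1) was 0.868 to 0.918 within groups and 0.661 to 0.785 between them, and CG1 lay farthest from the rest, at −92.5 on the first principal component against −55.4 and −53.2 for CG2 and CG3. The libraries also went against what their labels would lead one to look for. A list of HIF targets outside the sugar carriers had 25 tested loci, with a median log2 fold change of −2.75. Of these, 22 were lower in HG (88.0%, beside 12.1% of all tested loci) and 1 was higher. Among the lower ones egln3, the oxygen sensor that HIF itself induces, had 2.61, 1.81 and 1.86 FPKM in HG against 375, 212 and 239 FPKM in CG. Loci of the same gene name were counted separately, those of igfbp1a, igfbp1b, ddit4 and hk1 among them, so 22 is not a count of genes. The list was chosen with earlier results of these data known, so its share is no independent test of the labels. The labels were used as given, HG and CG below mean the libraries so labelled, and whether the labels name the right tanks was not tested.

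Differences between HG and CG were tested by limma on log2(FPKM + 1), a scale that understates the change of weakly expressed loci, for the 16423 loci whose mean reached 1 FPKM. Of these, 1359 (8.27%) were higher in HG and 1990 (12.1%) were lower at an adjusted p under 0.05. DE genes, which also had to differ by 1 or more on the log2 scale, made up 16.6% of the tested loci, and the groups did not overlap at 43.5%. Of the 15 slc2a loci, 7 were tested. Among them 1 was higher in HG (14.3%), 2 were lower (28.6%) and 4 did not pass, and the 2 lower ones were DE genes. With 7 loci a single call makes up 14.3%, so these shares are no result about the family as a whole. The median log2 fold change was −0.28 over the 7 members and −0.15 over all tested loci.

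**Figure D1:**
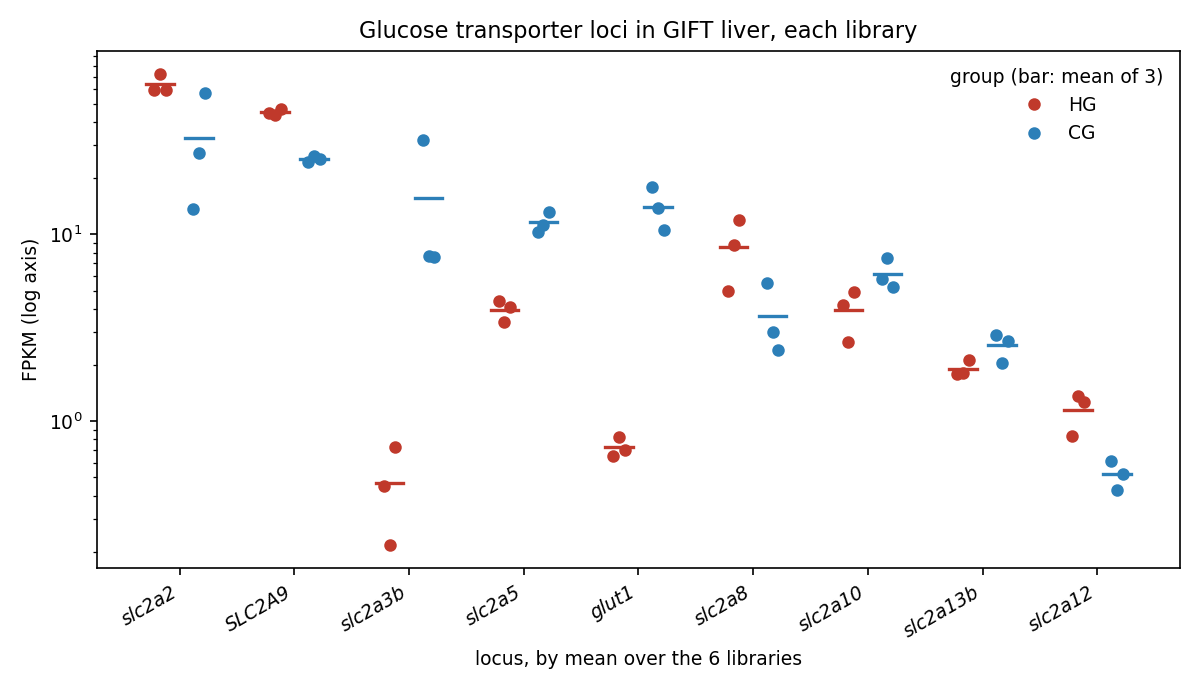
FPKM on a log axis in each HG and CG library (points) with the mean of 3 libraries (bars), for the 7 tested slc2a loci, glut1 and slc2a12. The HG points of slc2a3b and glut1 all lie below 1 FPKM and their CG points above 7 FPKM, while the HG points of slc2a2 and SLC2A9 lie above every CG point.

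Among the class I carriers, which take up mainly glucose, slc2a2 had the highest mean of all members in both groups. Its locus (MSTRG.5385) had 59.3, 72.1 and 59.4 FPKM in HG against 13.8, 27.4 and 57.2 FPKM in CG. The HG libraries all lay above the CG libraries, although CG3 lay just under HG1 and the CG values spread widely. The means were 63.6 ± 7.37 FPKM in HG and 32.8 ± 22.2 FPKM in CG (SD, n = 3 each). In CG1 the level of slc2a2 lay under those of slc2a3b and SLC2A9 (32.1 and 24.3 FPKM). The log2 fold change of slc2a2 was 1.15 with a 95% confidence interval of 0.01 to 2.29 and did not pass the test (limma, adjusted p = 0.133). Among the leave-outs its call changed only without CG3, where the change was 1.65 and passed (limma, adjusted p = 0.0315). Without CG1 the change was 0.66 and did not pass.

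The class I carrier slc2a3b, a copy of the gene for the high-affinity glucose carrier known in mammals from neurons, was lower in HG. Its locus (MSTRG.13267) had 0.447, 0.218 and 0.732 FPKM in HG against 32.1, 7.67 and 7.55 FPKM in CG. No library of the groups overlapped, and CG1 stood far above the other CG libraries. The mean was 33.9-fold lower in HG than in CG, and the log2 fold change was −3.22 (SE 0.53, limma adjusted p = 0.00922). Without CG1 the change was −2.57 and still passed (limma, adjusted p = 0.00599). In level the locus ranked 21185 of all loci in HG and 2251 in CG.

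The locus named glut1 (MSTRG.16591), the basal glucose carrier of most vertebrate tissues, showed a like difference with less spread. It had 0.653, 0.821 and 0.703 FPKM in HG against 17.98, 13.85 and 10.53 FPKM in CG. The HG values lay close together and far under every CG value. Its log2 fold change was −3.10 (SE 0.23, limma adjusted p = 0.00115), a mean 19.5-fold lower in HG than in CG. Over the alternatives tried its change ran from −4.08 to −2.92.

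The remaining class I loci were hardly detected. The second slc2a3 copy, slc2a3a, was at 0 in every HG library and reached 0.0290 FPKM in CG1 alone. SLC2A4 encodes the insulin-regulated carrier of mammalian muscle and fat. One of its loci (MSTRG.23322) had 1.05 FPKM in HG1 and 0 in HG2 and HG3, against 0 to 0.203 FPKM in CG. The other (MSTRG.23321) had 0.00400 to 0.0783 FPKM in HG and 0 to 0.116 FPKM in CG. Whether these loci are copies or pieces of the same gene was not examined. Fragments may have been shared between them, so their single values are uncertain.

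The class II carriers take fructose or urate in mammals, and they held the member that was higher in HG. SLC2A9, the urate carrier of mammalian kidney and liver (MSTRG.5274), had 44.5, 43.9 and 47.1 FPKM in HG against 24.3, 26.3 and 25.3 FPKM in CG. The libraries of each group agreed within a few FPKM and the groups did not overlap. The means were 45.2 ± 1.71 FPKM in HG and 25.3 ± 0.998 FPKM in CG (SD, n = 3 each), a ratio of 1.78. The log2 fold change of SLC2A9 was 0.81 (SE 0.19, limma adjusted p = 0.0264). The call was lost when most single libraries were left out, and the size of the change held. The limma adjusted p was 0.0829, 0.0514 and 0.0681 without HG1, HG2 and HG3, and 0.0577 and 0.0567 without CG2 and CG3. It passed only without CG1, at 0.0460, while the log2 fold change stayed between 0.78 and 0.84 over the 6 leave-outs. Over all loci the count higher in HG was 784 to 970 in these leave-outs, against 1359 with all libraries.

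The locus slc2a5 (MSTRG.7401), which bears the name of the fructose carrier, moved the other way. Neither this locus nor SLC2A9 had a matching symbol in RefSeq. The slc2a5 locus had 4.391, 3.403 and 4.081 FPKM in HG against 10.3, 11.3 and 13.2 FPKM in CG. All HG libraries lay at less than 5 FPKM and all CG libraries above 10 FPKM. The means were 3.96 ± 0.51 FPKM in HG and 11.6 ± 1.44 FPKM in CG, and the log2 fold change was −1.34 (SE 0.20, limma adjusted p = 0.00614). Leaving out any library kept it between −1.42 and −1.26, with an adjusted p of at most 0.0261 in limma. The FPKM of SLC2A9 was 10.1 to 12.9 times that of slc2a5 in HG and 1.92 to 2.35 times in CG. The other class II loci lay near 0. The locus slc2a11l was at 0 in HG and at 0.0919, 0.0668 and 0.0570 FPKM in CG, slc2a9l1 reached 0.0441 FPKM in HG and 0.0487 FPKM in CG, and slc2a11a reached 0.00243 FPKM in HG3 alone.

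**Figure D2:**
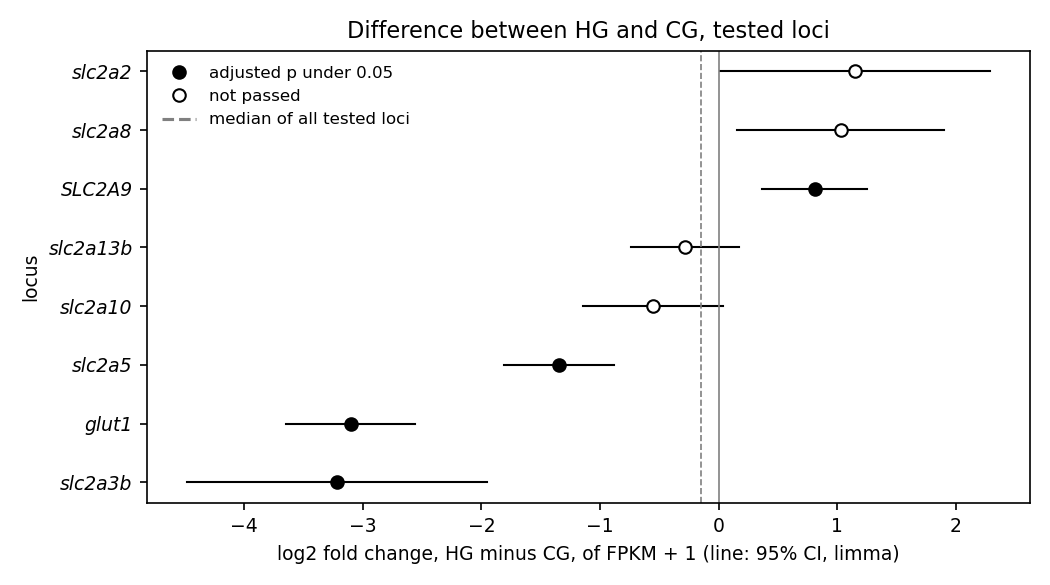
Log2 fold change of FPKM + 1, HG minus CG, for the 7 tested slc2a loci and glut1, with 95% confidence intervals from limma (lines) and filled points where the adjusted p was under 0.05. SLC2A9 lies at 0.81 with a narrow interval, slc2a2 at 1.15 with an interval that reaches down to 0.01, and slc2a5, glut1 and slc2a3b lie below −1.

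The class III carriers sit largely on membranes inside the cell. Of these, slc2a8, an intracellular hexose carrier (MSTRG.6977), had 4.953, 8.775 and 11.98 FPKM in HG against 5.51, 3.01 and 2.41 FPKM in CG. HG1 lay under CG1, so the groups overlapped. The log2 fold change of slc2a8 was 1.03 with an interval of 0.15 to 1.90 and did not pass (limma, adjusted p = 0.0933). It did pass where the libraries were rescaled, at an adjusted p of 0.0411 by limma after median of ratios scaling.

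The gene slc2a10 encodes a carrier of internal membranes that is mutated in human arterial tortuosity syndrome (MSTRG.9004). It had 4.19, 2.67 and 4.92 FPKM in HG against 5.77, 7.46 and 5.25 FPKM in CG. The groups did not overlap, but HG3 and CG3 lay close together, and the log2 fold change was −0.56 with an interval of −1.15 to 0.03 (limma, adjusted p = 0.156). The weakly expressed slc2a12 (MSTRG.3233) was under the minimum level for the test, with 0.838, 1.36 and 1.26 FPKM in HG against 0.614, 0.427 and 0.519 FPKM in CG. Its groups did not overlap, with HG above CG at a ratio of means of 2.22. The lysosomal carrier slc2a6 had 0 to 0.0805 FPKM in HG and 0.0570 to 0.191 FPKM in CG.

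The inositol carrier slc2a13b (MSTRG.11854), which moves myo-inositol together with protons, had 1.78, 1.81 and 2.14 FPKM in HG against 2.91, 2.05 and 2.71 FPKM in CG. The groups overlapped and the log2 fold change was −0.28 with an interval of −0.74 to 0.17 (limma, adjusted p = 0.327). Over the tested members, the groups did not overlap at 5 of the 7 loci, beside 43.5% of all tested loci. With 7 loci this is no result about the family. Among the untested members slc2a12 and slc2a11l did not overlap, the latter at 0 in HG and at most 0.0919 FPKM in CG. The share over all untested loci was not worked out. Of the untested members 6 stayed under 0.2 FPKM in every library. No tested member changed sign under any alternative.

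The order of levels was clearer in HG than in CG. In HG the ranges of slc2a2, SLC2A9 and slc2a8 stood apart from each other and from what followed, slc2a5 and slc2a10 overlapped, and slc2a13b and slc2a12 came next, each apart from the locus ranked after it. The SLC2A4 locus MSTRG.23322 nevertheless lay above slc2a12 in HG1. Some of these gaps were narrow. The lowest HG value of slc2a8 was 4.953 FPKM and the highest of slc2a10 was 4.92 FPKM. The lowest HG value of slc2a12 was 0.838 FPKM and the highest of glut1 was 0.821 FPKM. At the low end glut1 and slc2a3b could not be ordered. In CG the neighbours slc2a2, SLC2A9, slc2a3b, glut1 and slc2a5 overlapped in turn, and a gap followed. Then came slc2a10, slc2a8 and slc2a13b, again overlapping, with slc2a12 apart below them. Overlap also held between some loci that were not neighbours, such as slc2a2 and glut1. It did not hold between all of them, since every CG value of SLC2A9 lay above every CG value of glut1 and slc2a5.

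The 15 loci together had 122, 134 and 132 FPKM in HG against 95.6, 86.0 and 115 FPKM in CG, without overlap. With glut1 added, the sums were 122, 135 and 132 FPKM in HG and 114, 99.9 and 125 FPKM in CG, so that the groups overlapped. The pair slc2a2 and SLC2A9 held 80.8 to 86.4% of the summed FPKM in HG against 39.82, 62.42 and 72.04% in CG. The spread within CG followed slc2a2 and slc2a3b, which held 14.4% and 33.6% in CG1 and 49.9% and 6.59% in CG3. By class the groups overlapped in classes I, II and III, with class I at 45.7 to 53.9% in HG and 40.95 to 56.79% in CG, class II at 35.2 to 40.2% in HG and 33.7 to 43.8% in CG, and class III at 8.25 to 13.9% in HG and 7.19 to 12.9% in CG. The inositol carrier slc2a13b did not overlap, at 1.35 to 1.62% in HG and 2.36 to 3.04% in CG. The FPKM of slc2a2 was 84.5 to 90.7 times that of glut1 in HG and 0.766, 1.98 and 5.43 times in CG. These are descriptions of 3 libraries against 3 and were not tested.

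In whole liver, fewer cells of a type and less RNA per cell cannot be told apart, and markers of several cell types also differed between the groups. Whether markers and carriers moved together across libraries was not worked out. The counts that follow stand beside 8.27% of all tested loci higher in HG and 12.1% lower. In the shorter lists a single call is a large share, so their counts are no result about those cells. For slc2a2 and SLC2A9, 9 of 30 tested hepatocyte loci were higher in HG, 2 were lower and 19 did not pass. Their summed FPKM overlapped, at 56570 to 66170 in HG and 44070 to 60230 in CG. The most abundant, apoa1a, was higher and the next, hpx, lower (log2 fold change 1.35 and −1.53). For glut1 and slc2a3b, endothelial loci fell in 5 of 12 tested cases, with summed FPKM of 27.2 to 32.2 in HG and 62.0 to 73.1 in CG, and the most abundant, kdr, at −1.68. The next, egfl7, whose locus is joined with another gene, did not pass (−0.71). Bile duct loci fell in 4 of 8 cases, with sums of 224 to 293 FPKM in HG and 616 to 732 FPKM in CG, among them the keratins krt8 and krt18 (−1.45 and −1.29). These keratins made up most of each sum, so the sum says little about the other bile duct loci. Exocrine pancreas loci fell in 8 of 9 cases, with sums of 289 to 1630 FPKM in HG and 2993 to 6238 FPKM in CG, among them trypsin (try) and elastase (ela2) at −2.87 and −2.94. Of the macrophage and neutrophil loci 6 of 21 were lower and 1 was higher, the latter a locus joined with other genes. Their sums overlapped, at 1862 to 3238 FPKM in HG and 1911 to 2231 FPKM in CG. Most of each sum came from the most abundant loci, both named LYZ (lysozyme), so it says little about the other loci. The LYZ loci did not pass (0.41 for MSTRG.21378 and −0.02 for MSTRG.2708). Of the erythroid loci 3 of 9 were higher in HG, as was SLC2A9, with a median of 1.25 and sums of 75.2 to 141 FPKM in HG and 45.8 to 191 FPKM in CG that overlapped, and the most abundant, tfr1a and alas2, did not pass (−0.94 and 1.47). Of the adipocyte loci, which matter for SLC2A4, 1 of 3 was lower (lpl, −3.04) and cidec did not pass (−0.02), with sums of 43.4 to 57.7 FPKM in HG and 113 to 236 FPKM in CG. No list had a locus at 0 in all 6 libraries, and the part of these cells in the results was not tested. The 13 loci of skeletal muscle, the tissue of SLC2A4 in mammals, were all under 1 FPKM in every library. In the endocrine pancreas list insulin (ins), too low for the test, was at 0 in HG and at most 0.537 FPKM in CG. The only tested locus of that list, pdx1, was higher in HG (log2 fold change 1.56, limma adjusted p = 0.00651). It had 3.22 to 3.68 FPKM in HG and 0.229 to 0.874 FPKM in CG.

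Carriers of sugar outside the family lay mostly at low levels. The 7 loci of sodium-coupled glucose cotransporters had too low a mean for the test and summed to 1.24 to 2.14 FPKM in HG and 0.562 to 2.71 FPKM in CG. The most abundant were slc5a3b (MSTRG.18628), an inositol carrier, at 0.535 to 1.01 FPKM in HG and 0.105 to 2.10 FPKM in CG, and slc5a9 at 0.362 to 0.413 FPKM in HG and 0.183 to 0.291 FPKM in CG. Of 6 tested loci in the slc37, slc45, slc50 and mfsd4 carriers, 1 was lower in HG (16.7%, beside 12.1% of all tested loci), a share that is no result about these carriers. That locus, SLC37A3, had a log2 fold change of −1.26 (limma, adjusted p = 0.0465) and passed in only 1 of 6 leave-outs, without CG2. The glucose 6-phosphate carrier slc37a4a, which feeds glucose release, was at 12.6 to 16.2 FPKM in HG and 7.75 to 26.7 FPKM in CG and did not pass (log2 fold change 0.10).

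Once inside the hepatocyte glucose is phosphorylated by hexokinases, and glucose 6-phosphatase reverses that step before release. The list of glucose trapping and release held these enzymes and also GCKR, pgm1, pgm2 and gpia. Of its 12 tested loci, 5 were lower in HG (41.7%, beside 12.1% of all tested loci) and 7 did not pass. The median of the list was −0.73, beside −0.15 over all tested loci. GCKR, pgm1, pgm2 and gpia did not pass. Nor did g6pca.1, at 34.2 to 52.9 FPKM in HG and 40.0 to 54.9 FPKM in CG (log2 fold change −0.25). An hk1 locus (MSTRG.17031) had 0.916, 0.637 and 0.529 FPKM in HG against 4.29, 3.03 and 4.16 FPKM in CG, a change of −1.51 (limma, adjusted p = 0.00562). The g6pca.2 locus with the higher level (MSTRG.11370), a catalytic subunit of the phosphatase, had 163, 190 and 318 FPKM in HG against 890, 363 and 593 FPKM in CG, a change of −1.43 (limma, adjusted p = 0.0480). Besides these, hk1 (MSTRG.17432), hk2 (MSTRG.11187) and g6pca.2 (MSTRG.11371) fell by 2.97, 0.90 and 1.02 on the log2 scale. Loci of the same gene name were counted separately here too, so 5 is not a count of genes. The count was 1 without HG1, 3 without HG2 or CG2, and 2 without HG3, CG1 or CG3. Only hk1 (MSTRG.17031) passed in all 6 leave-outs. The count was 3 after each of the scalings and 2 with no minimum FPKM, and the g6pca.2 loci lost their calls after median of ratios scaling (limma, adjusted p = 0.0609 for MSTRG.11370 and 0.0710 for MSTRG.11371). Glucokinase (gck), the hexokinase typical of liver, was at 3.56, 1.49 and 317 FPKM in HG against 0.680, 19.8 and 1.62 FPKM in CG, and HG3 alone held its high value (log2 fold change 1.77, limma adjusted p = 0.537).

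The list set beside slc2a5 held enzymes of fructose and polyol handling together with those of galactose, mannose and hexosamine use. Of its 11 tested loci, 1 was higher in HG and 1 lower (9.09% each, beside 8.27% and 12.1% of all tested loci), with a median of −0.06, and at these shares the counts are no result about the list. The higher one, tkfc, the triokinase of fructose breakdown, had 63.5, 73.0 and 69.1 FPKM in HG against 10.6, 20.7 and 17.3 FPKM in CG, with no overlap. Its log2 fold change was 2.06 (SE 0.28, limma adjusted p = 0.00487). The lower one was gale, an epimerase of galactose use, at −2.18 (limma, adjusted p = 0.0126). Ketohexokinase (khk), the first enzyme of fructose breakdown, was at 21.7 to 25.7 FPKM in HG and 7.94 to 21.4 FPKM in CG and did not pass (log2 fold change 0.65, limma adjusted p = 0.259).

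Beside SLC2A9, 4 of 8 tested loci of urate and vitamin C handling were higher in HG (50.0%) and 2 lower (25.0%), with a median of 1.11. Of all tested loci 8.27% were higher and 12.1% lower. Xanthine dehydrogenase (xdh), which makes urate, had 33.7, 47.5 and 31.8 FPKM in HG against 10.4, 13.2 and 17.7 FPKM in CG (log2 fold change 1.40, limma adjusted p = 0.0163). Allantoicase (allc), which acts downstream of urate, had 34.04, 48.34 and 35.71 FPKM in HG against 5.55, 9.24 and 10.5 FPKM in CG (log2 fold change 2.12, limma adjusted p = 0.00471). Neither gene overlapped between the groups. The organic anion carrier SLC22A7 and the vitamin C carrier slc23a1 were the others that were higher (2.15 and 1.11). The vitamin C carrier slc23a2 and abcg2a, a urate exporter in mammals, fell by 2.2 and 1.31 on the log2 scale. Uricase (uox), which breaks urate down, was at 757 to 1134 FPKM in HG and 439 to 721 FPKM in CG and did not pass (log2 fold change 0.55, limma adjusted p = 0.202). The higher count was 2 without HG1 and 3 or 4 without any other library, and the lower count was 0 without HG1, HG2, HG3 or CG2, 1 without CG1 and 2 without CG3. Both allc and SLC22A7 passed in all 6 leave-outs.

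Genes that place GLUT proteins in the membrane or govern them had a median of −0.53 over 34 tested loci. Of these, 8 were lower in HG (23.5%, beside 12.1% of all tested loci) and 26 did not pass. The largest of these changes was in txnipa, a copy of the gene whose mammalian protein drives GLUT1 into the cell. It had 63.0, 52.5 and 69.9 FPKM in HG against 348, 295 and 454 FPKM in CG, without overlap, and a log2 fold change of −2.53 (SE 0.25, limma adjusted p = 0.00173). By adjusted p it was followed by an insulin receptor copy (INSR, MSTRG.11147, −1.91), the membrane fusion gene snap23.1 (−1.62) and AKT1 (MSTRG.10357, −1.33), a kinase of insulin signaling. A further AKT1 locus (MSTRG.10358) was also among the 8, so 8 is not a count of genes. Leaving out libraries lowered the count, to 3 without HG1, 5 without HG2, 4 without HG3, 6 without CG1, 6 without CG2 and 5 without CG3. The other copy of txnip, txnipb, was at 3.34 to 4.25 FPKM in HG and 1.80 to 2.47 FPKM in CG and did not pass (log2 fold change 0.62, limma adjusted p = 0.0594).

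**Figure D3:**
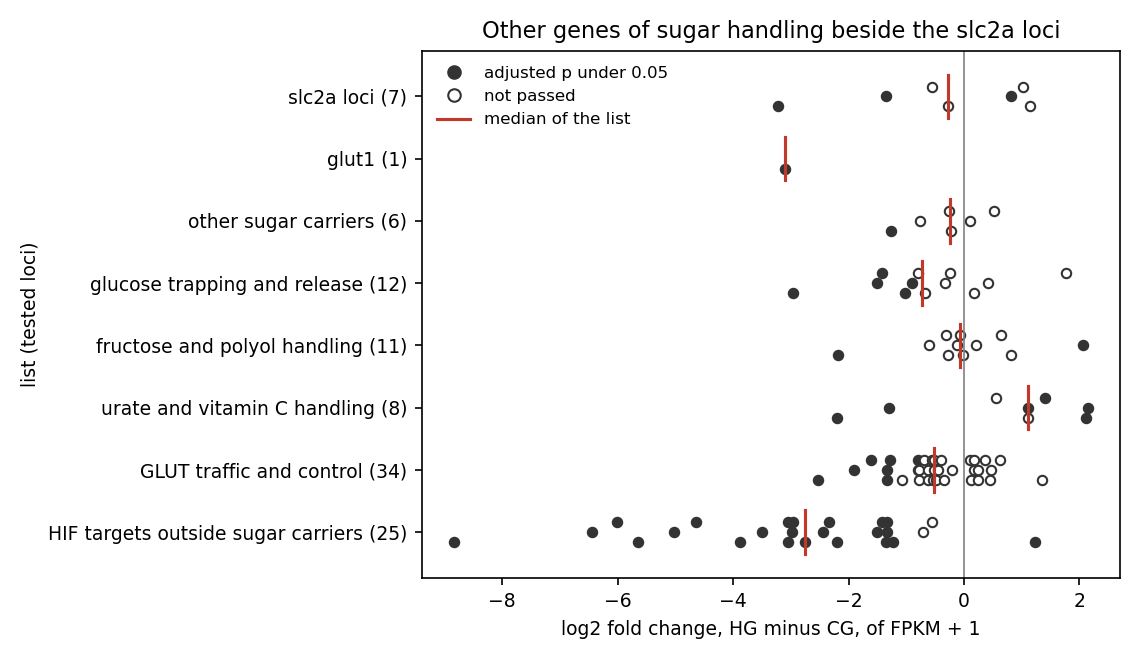
Log2 fold change of FPKM + 1, HG minus CG, for each tested locus of the slc2a family, glut1 and the lists of sugar handling (points, filled where the limma adjusted p was under 0.05), with the median of each list (red bars). Among the lists the HIF targets lie farthest to the left by their median of −2.75, and the single locus glut1 lies at −3.10. The urate and vitamin C loci have a median of 1.11, and the slc2a loci lie on either side of 0.

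The HIF targets gave the widest contrast around slc2a3b and glut1. The 28 loci, 2 of which are the hk1 loci above, summed to 158 to 201 FPKM in HG against 3224 to 6024 FPKM in CG. Besides egln3, the growth brake ddit4 (MSTRG.14744) had 0.536, 0.295 and 0.0217 FPKM in HG against 590, 492 and 676 FPKM in CG. The collagen hydroxylase p4ha1b was at −4.65 and igfbp1b (MSTRG.589), a binding protein of insulin-like growth factors, at −6.02. The exception was pdk1, a kinase that holds back pyruvate oxidation, at 7.83 to 10.2 FPKM in HG and 2.96 to 4.34 FPKM in CG (log2 fold change 1.23, limma adjusted p = 0.0112). The count of lower loci among the HIF targets was 19 to 22 over the leave-outs.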

How the data were processed

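Liver libraries of 3 HG and 3 CG samples were grouped by their labels. The authors mapped paired reads with HISAT and assembled and quantified loci with StringTie, and the deposited values are FPKM per locus (versions and genome build are not given in the sources used here). Mean-filtered loci (at least 1 FPKM) were tested on log2(FPKM + 1), a pseudocount of 1, with limma 3.58.1 in R 4.3.3 (trended variance, 2.86 prior degrees of freedom, two-sided, Benjamini-Hochberg adjustment over all tested loci). Tables were made with pandas 2.3.3, numpy 2.4.6 and scipy 1.17.1 in Python 3.11.15, and plots with matplotlib 3.10.9.

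The members, lists and rules were chosen with earlier results of these data known. Named genes were all members, glut1, in each pathway list up to 4 called loci in the main direction and 2 in the other by smallest adjusted p, or without calls the 2 of highest mean FPKM, and the 2 most abundant tested loci of each marker list described. The further loci named for contrast (slc37a4a, gck, GCKR, g6pca.1, pgm1, pgm2, gpia, khk, uox, txnipb, ins, the abcg2d locus MSTRG.14974 and the g6pca.2 locus MSTRG.11370) were chosen after their values were seen. In RefSeq 9 of the 15 members had a matching symbol and 6 had none. The latter were SLC2A9, slc2a5, slc2a13b, slc2a11a and both SLC2A4 loci. SLC2A9, slc2a5 and slc2a13b also carry the same KEGG orthology entry. Entries were shared among members with a RefSeq symbol too, such as slc2a2 and slc2a8. What a locus carries is therefore taken from the gene name in the deposited expression table. Sequences and coordinates were not used here. Alternatives were pseudocounts of 0.1 and 0.5, no minimum, a minimum of 10 FPKM, 3 scalings, other limma settings, a Ballgown-style linear model, the replicate number as a block and leaving out each library.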

Additional observations from a re-analysis of the deposited data

How the results depend on the processing

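Over 8 tested loci (the 7 members and glut1) and 130 alternative values, 116 kept the call, 10 lost it, 4 gained it and none reversed. The count of members higher in HG was 2 after median of ratios or upper quartile scaling and quantile normalization, 0 under the Ballgown-style linear model, 0 with the replicate number as a block and 0 to 1 over the leave-outs. The count lower was 0 with a minimum of 10 FPKM, which left slc2a3b and slc2a5 untested, and 0 under the Ballgown-style model. DE members numbered 0 under these same alternatives, 4 after median of ratios or upper quartile scaling, and 2 to 3 over the leave-outs. The median of all loci was 0.01 after median of ratios scaling and −0.15 unscaled, and with that scaling 1817 loci were higher and 1595 lower, against 1359 and 1990 unscaled. Under the Ballgown-style model 2 loci were higher and 0 lower in all, with 3583 at an unadjusted p under 0.05, and 4 of the 7 members were among those. The replicate numbers did not pair the libraries (correlations of 0.04, −0.10 and −0.08), and the block gave 867 higher and 1093 lower loci. With it SLC2A9 had a limma adjusted p of 0.111, no other tested member changed its call, and 4 of the 7 were at an unadjusted p under 0.05. Among the lists, the block left 2 lower loci in glucose trapping and release and 4 in GLUT traffic and control, 0 lower in other sugar carriers and 1 lower in urate and vitamin C handling, and it left the higher counts as they were. The alternatives for the lists were chosen after seeing the data. The cause of these changes was otherwise not tested. Read counts were not used here, so no counting interval can be given for the low loci.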
